A study of Sus scrofa with 20 samples.

Results

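The interval studied was the fourth week of suckling in piglet ileum, from day 21 to day 28 of age. Its arrays were assigned to groups by the deposited labels. The 4 arrays labelled S28D (suckling piglets killed at 28 days of age) were set against the 4 arrays labelled S21D (suckling piglets killed at 21 days of age), 8 of the 20 arrays in all. The gene lists and rules used below were set with earlier results of these data known. Each array, an Affymetrix GeneChip Porcine Genome Array, carried RNA of the ileal mucosa from a single piglet. Both groups were Landrace × Large white × Duroc crossbreds that stayed with their own sow and were kept from its feed, so that no weaning lay between them. The litter and the sex of each piglet are not given in the labels, and the design text and the methods differ on the number of litters. Piglets of a litter may therefore be shared within or between groups, and the p-values below treat each array as an independent animal.

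In newborn mammals the ileal enterocyte takes up milk macromolecules by endocytosis at its apical surface and breaks them down in large lysosomes. As the gut matures this vacuolated cell type is replaced by adult enterocytes, which absorb the products of luminal and brush border digestion. The ileum also carries the terminal bile acid uptake system and, in pigs, a long Peyer's patch, and its epithelium expresses enzymes that conjugate reactive compounds from the diet and bile. Roles given below for single genes are known mostly from human and mouse work.

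The values were those the authors deposited after gcRMA normalization and log transformation. The base of the logarithm is not stated and was taken as 2, the usual output of gcRMA, so that a difference of 1 is read as 2-fold and every fold given here rests on that base. The values ran between a floor of 2.08 and 16.41, and 41.6% of the values in the 8 arrays lay within 1 unit of the floor, where the scale carries no order. A marker of ileum (FABP6) and markers of epithelium (EPCAM and VIL1) were bright. FABP6, the ileal bile acid-binding protein, was at 15.74 ± 0.11 in S28D and 15.82 ± 0.23 in S21D (SD, n = 4 each, as for the values that follow). EPCAM, an epithelial surface protein, was at 14.63 ± 0.22 and 14.79 ± 0.15 in the same order. VIL1, villin of the brush border, was at 13.50 ± 0.38 in S28D and 13.72 ± 0.23 in S21D. Of 7 measured genes of an ileal identity list, 6 had a group mean of at least 4. Of 5 measured bile acid handling genes, 2 did. ACTG2, a smooth muscle actin, was also bright, at 12.48 ± 0.96 in S28D and 12.93 ± 0.25 in S21D. The S28D arrays were the more spread of the 2 groups. Over 12250 probe sets with a mean of at least 5 log2 units, the median SD was 0.27 in S28D and 0.20 in S21D, and the SD was larger in S28D for 70.1% of them. Pearson correlations over probe sets ran from 0.988 to 0.991 between S28D arrays, from 0.988 to 0.995 between S28D and S21D arrays, and from 0.993 to 0.996 between S21D arrays. EIF1AY, a Y-linked translation factor gene, was at 11.75 and 11.55 in S28D replicates 1 and 3, and at the floor in S28D replicates 2 and 4 and in every S21D array. The groups therefore differ in this marker as well as in age, and any part of it in the differences below was not tested, beyond giving values without those arrays.

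Across the whole array the interval was quiet. The arrays were compared with limma over 23999 probe sets, and a probe set was called at an adjusted p (Benjamini-Hochberg) below 0.05 with at least a 2-fold difference. By this rule 1 probe set was higher in S28D (0.00417% of those tested) and 0 were lower (0%). Without adjustment, limma gave p under 0.05 for 202 probe sets higher in S28D (0.842%) and 187 lower (0.779%), 389 in all (1.62%), of which 23 higher (0.0958%) and 55 lower (0.229%) differed by at least 2-fold. The methods' t-test with a 2-fold minimum named 14 higher (0.0583%) and 52 lower (0.217%), and 0 after Benjamini-Hochberg adjustment. The S28D and S21D arrays did not overlap for 119 probe sets higher in S28D (0.496%) and 163 lower (0.679%). Of 10069 probe sets with 1 gene symbol, 22 had a group mean of at least 4, an unadjusted p under 0.05, a 2-fold difference and no overlap. They stood for 6 genes higher in S28D and 15 lower, out of 6765 named genes. The balance of the directions was not tested. Over the brightest probe set of each of 6765 named genes, GSTA1 was the 1 past the p adjusted over all 23999 probe sets (0.0148%). With p adjusted over those 6765 probe sets, FABP7 passed as well, on the lower side (adjusted p = 0.0197 in limma). The other separated genes did not pass the adjusted test, and their values are given as measurements.

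**Figure D1:**
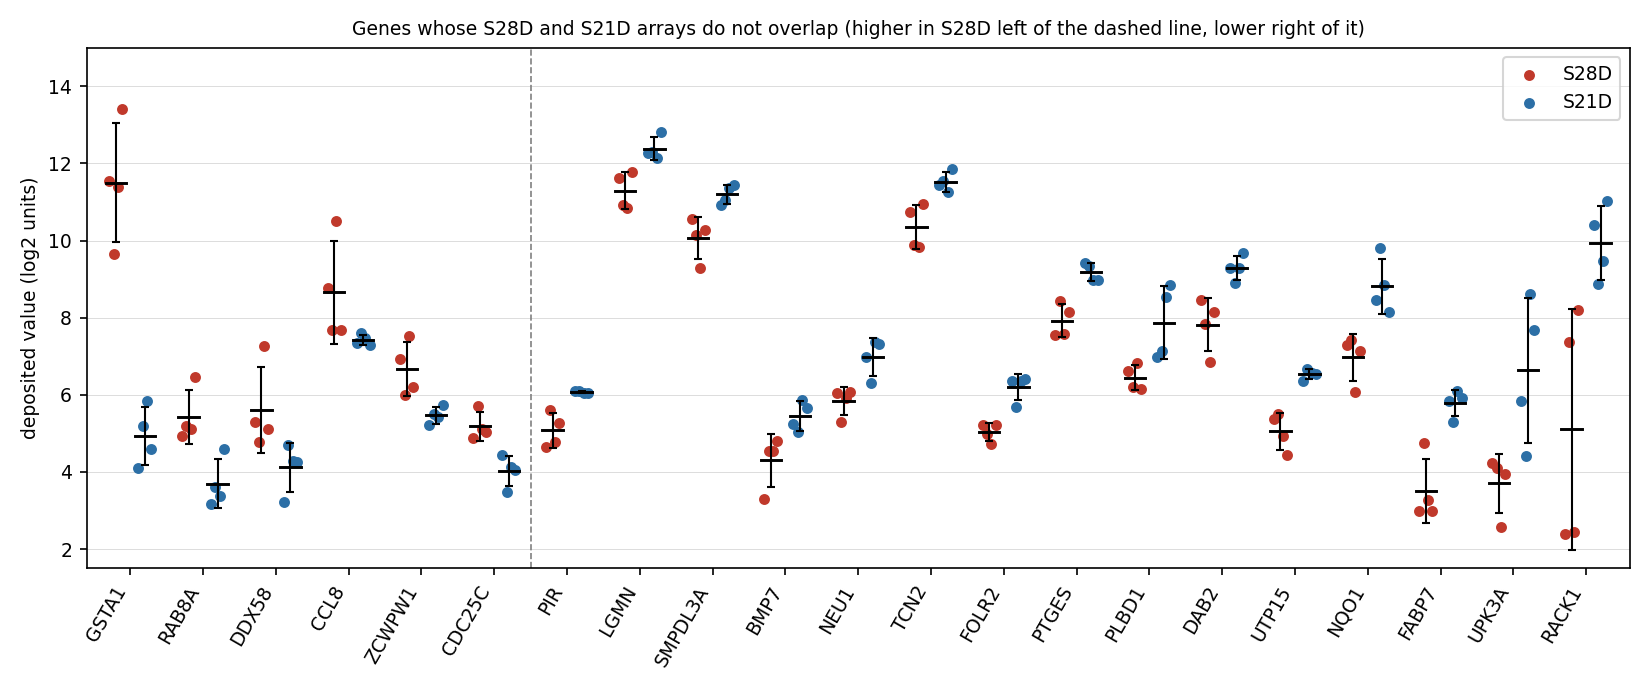
Deposited log2 values (vertical axis) of the 21 named genes whose 4 S28D arrays (red) and 4 S21D arrays (blue) did not overlap, with mean and SD. GSTA1 stands furthest apart on the left, and the S28D points of RACK1, on the right, spread from 2.40 to 8.20.

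GSTA1, an alpha-class glutathione transferase that couples glutathione to electrophiles and lipid peroxidation products, was the probe set that rose. Its values were 11.55, 9.65, 11.39 and 13.42 in the 4 S28D arrays, against 4.11, 5.18, 5.83 and 4.58 in the 4 S21D arrays. The lowest S28D array was 3.82 log2 units above the highest S21D array, and the S28D arrays themselves spanned 3.77. The difference was 6.58 ± 0.69 (SE), 95.5-fold, with an adjusted p of 0.00292 in limma. Because ileal mucosa is a mixture of cells, a change in the number of cells of a type and a change in RNA per cell cannot be told apart in this or any other value here. Fitted to the 8 arrays of the interval alone, the same difference had an adjusted p of 0.767, so the call rests on the spread estimated from all 20 arrays. With S28D replicates 1 and 3 left out it was 6.61, with an adjusted p of 0.0178.

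A second GSTA1 probe set, whose suffix marks it as shared by more than 1 transcript, lay the same way. It read 8.74, 7.19, 8.08 and 10.73 in S28D and 3.31, 6.24, 5.35 and 5.18 in S21D, again without overlap, a difference of 3.67 ± 0.70 with an adjusted p of 0.381. S28D replicate 4 was the highest and S28D replicate 2 the lowest of the S28D arrays on both probe sets. The third GSTA1 probe set was at the floor in all S28D arrays and in all S21D arrays but replicate 2, which read 3.16, and it carries no information on direction. Alpha-class glutathione transferase genes are close copies of each other, so that the named gene may stand for its near relatives as well.

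The day 21 arrays were the low point for GSTA1 over the suckling ages. Its first probe set averaged 9.10 ± 0.46 in S14D (n = 3), 4.93 ± 0.74 in S21D and 11.50 ± 1.54 in S28D (n = 4 each), and 14.65 ± 0.39 in the 3 arrays labelled S35D, although the labels S35D and 21W28D were found doubtful in an earlier look at these arrays. The second probe set averaged 6.81 ± 0.64 in S14D, 5.02 ± 1.23 in S21D, 8.69 ± 1.503 in S28D and 12.66 ± 0.18 in the arrays labelled S35D. The S21D arrays enter both intervals, so the values on either side of day 21 are not separate evidence of a low point.

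No other glutathione transferase passed the test. Of 8 family members measured, by the brightest probe set of each gene, GSTA1 was the 1 past even an unadjusted p under 0.05, and the median difference was -0.02, against 0.00 over 6765 named genes. GSTA4, which handles the lipid aldehyde 4-hydroxynonenal, read 5.65, 6.75, 7.36 and 7.76 in S28D and 6.33, 6.41, 7.38 and 6.29 in S21D, with a difference of 0.28 ± 0.95. The microsomal enzymes MGST1 and MGST3 were bright and level, with differences of -0.04 ± 0.18 and 0.02 ± 0.22. GSTM3, a mu-class enzyme, read 7.89, 3.34, 7.52 and 8.12 in S28D and 7.48 to 8.37 in S21D. Its difference of -1.27 ± 0.83 came from S28D replicate 2, as the other arrays of the groups lay together. GSTK1, GSTO1 and GSTZ1 differed by -0.21, -0.08 and -0.01.

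**Figure D2:**
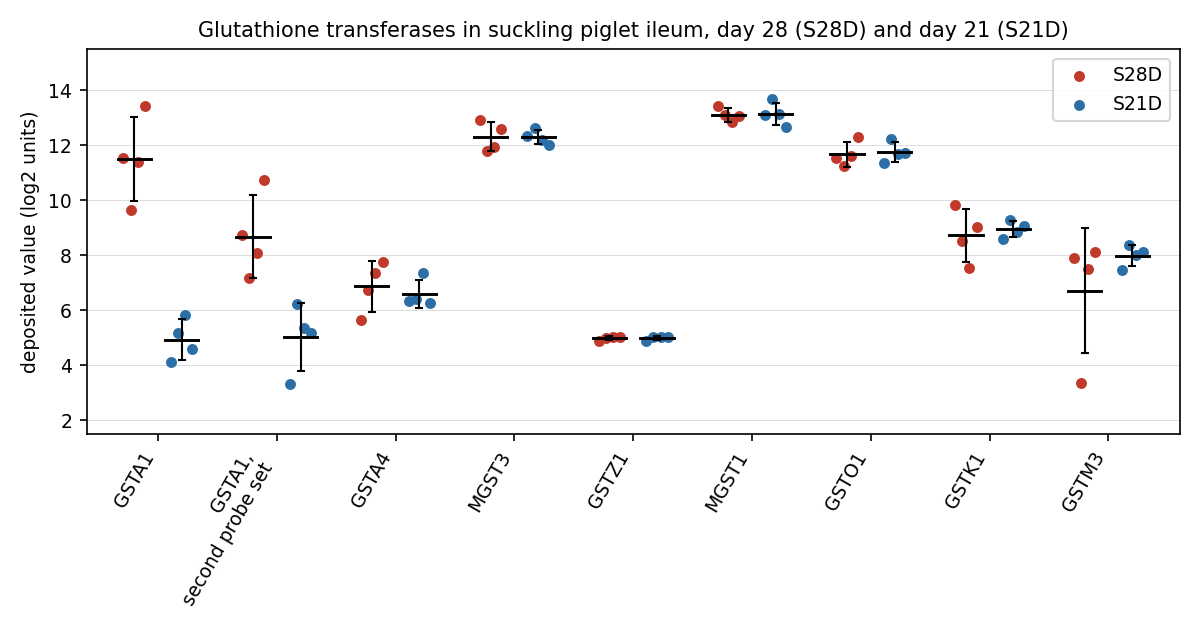
Deposited log2 values (vertical axis) of the 8 glutathione transferase genes, brightest probe set each, and of the second GSTA1 probe set, in S28D (red) and S21D (blue) arrays, with mean and SD. The groups part on both GSTA1 probe sets and lie together for the other 7 genes, apart from 1 low S28D array for GSTM3.

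Other redox and detoxification genes lay the opposite way to GSTA1 or did not differ. NQO1, the quinone reductase that is often read as a target of the NRF2 pathway, was at 7.30, 7.41, 6.08 and 7.13 in S28D and at 8.45, 9.80, 8.85 and 8.15 in S21D. No S28D array reached the lowest S21D array, and the difference was -1.83 ± 0.42 (adjusted p = 1 in limma). Thioredoxin, TXN, was near the top of the scale and differed little, with 14.15, 14.33, 14.23 and 14.17 in S28D and 14.59, 14.76, 14.40 and 14.74 in S21D, a difference of -0.40 ± 0.17. PIR, the iron-binding nuclear protein pirin, was at 4.64, 5.61, 4.78 and 5.26 in S28D and within 6.04 to 6.10 in S21D. A list for glutathione and thioredoxin redox, which also holds the quinone reductase NQO1 and the ferritin light chain FTL, had 21 measured members. Of these, 0 were higher and 3 lower at an unadjusted p under 0.05 (14.3%, against 0.99% of named genes lower by the same rule). The 3 were NQO1, FTL and TXN, and the median of the list was -0.11. Of 30 measured phase I and II enzymes and regulators, 0 were higher and 1 was lower (3.33%), with a median of -0.07. That gene was CBR1, a carbonyl reductase, listed at the floor in every S28D array and at 4.77, 2.08, 9.23 and 8.22 in S21D. S21D replicate 2 was at the floor as well, so the groups touch there, and no fold is given against values at the floor.

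NQO1 and PIR had higher means at day 21 than at days 14 and 28. NQO1 averaged 6.93 ± 0.08 in S14D, 8.81 ± 0.72 in S21D and 6.98 ± 0.61 in S28D, and PIR 4.59 ± 0.58 in S14D, 6.07 ± 0.03 in S21D and 5.07 ± 0.45 in S28D. Day 21 did not stand apart over the whole series, since NQO1 averaged 8.54 ± 0.31 in the arrays labelled S35D and 9.21 ± 0.61 in 21W35D (weaned at day 21, killed at day 35), and PIR reached 6.19 and 6.30 in single arrays of these groups (n = 3 each). FABP7, the brain-type fatty acid-binding protein, was also higher in mean at day 21 than at the ages on either side, and came closest to the test among lower genes. It read 3.00, 4.74, 3.28 and 3.00 in S28D and 5.84, 5.30, 6.09 and 5.92 in S21D, with no overlap and a difference of -2.28 ± 0.33 (adjusted p = 0.0776 in limma). At day 14 it was at 2.34 ± 0.03, near the floor. The lowest S28D values lay within 1 unit of the floor, so the size of the difference is uncertain. Leaving out single arrays took its difference between -2.70 and -2.11 and its adjusted p in limma between 2.9e-04 and 0.475. The smallest adjusted p came without S28D replicate 2, the S28D array nearest to the S21D arrays. UTP15, a factor of pre-ribosomal RNA processing, was at 5.37, 5.49, 4.92 and 4.43 in S28D and 6.36, 6.68, 6.57 and 6.53 in S21D, a difference of -1.48 ± 0.26 (adjusted p = 0.276), and averaged 5.53 ± 0.56 in S14D.

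Some genes of endocytosis and the lysosome were among those lower without adjustment. Of 30 measured members of a list for the neonatal enterocyte's endocytic and lysosomal machinery, 0 were higher and 4 lower at an unadjusted p under 0.05 (13.3%, against 0.99% of named genes), 0 passed the adjusted test, and the median difference was -0.17, or -0.13 with S28D replicates 1 and 3 left out. LGMN, the lysosomal cysteine protease legumain, read 11.61, 10.92, 10.84 and 11.79 in S28D and 12.27, 12.29, 12.15 and 12.83 in S21D. The 4 S28D arrays were below the 4 S21D arrays, by -1.09 ± 0.30. NEU1, the lysosomal sialidase, read 6.05, 5.29, 5.92 and 6.07 in S28D and 6.97, 6.30, 7.36 and 7.31 in S21D, also without overlap, a difference of -1.15 ± 0.49. HEXA, the alpha subunit of lysosomal beta-hexosaminidase, differed by -0.46 ± 0.21 and its groups overlapped.

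DAB2, the clathrin adaptor that carries the megalin and cubilin receptors into the cell, was measured by a pair of bright probe sets that differ on overlap. One read 8.45, 7.84, 6.86 and 8.14 in S28D and 9.28, 8.89, 9.28 and 9.67 in S21D, a difference of -1.46 ± 0.32 with every S28D array below every S21D array. The other, the brighter, read 8.44, 7.90, 6.83 and 6.64 in S28D and 9.56, 8.14, 9.71 and 11.32 in S21D, a difference of -2.23 ± 0.87, with S28D replicate 1 above S21D replicate 2. Another probe set was at the floor in both groups. Megalin itself, LRP2, was at the floor in all 8 arrays, and AMN, which anchors cubilin in the membrane, differed by -0.70 ± 0.48.

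The rest of the list differed by less. The cathepsins CTSB, CTSC, CTSD, CTSH, CTSS and CTSZ differed by -0.35 to 0.01, the clathrin chains CLTA and CLTC by -0.05 each, and FCGRT, the neonatal Fc receptor that moves IgG across epithelium, by -0.15 ± 0.20. Its values were 12.80, 12.08, 11.95 and 12.42 in S28D and 12.34, 12.72, 12.34 and 12.42 in S21D. The mean level of the 26 brighter members, those with a group mean of at least 4, was 10.99, 10.79, 10.83 and 11.04 in S28D and 11.12, 11.21, 11.21 and 11.49 in S21D. The 2 groups did not overlap, but lay within 0.09 of each other at their nearest.

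Of the genes named for being separated between the groups, 4 that were lower and not on the list are given here. Their direction was part of how they were chosen, and their products were put side by side after the values were seen. SMPDL3A, a lysosomal and secreted phosphodiesterase, read 10.55, 10.14, 9.28 and 10.27 in S28D and 10.93, 11.05, 11.36 and 11.44 in S21D, a difference of -1.14 ± 0.37. TCN2, the transcobalamin that carries vitamin B12, read 10.75, 9.89, 9.84 and 10.95 in S28D and 11.44, 11.53, 11.25 and 11.85 in S21D, a difference of -1.16 ± 0.34. FOLR2, a folate receptor known from macrophages, read 5.21, 4.97, 4.72 and 5.22 in S28D and 6.35, 5.69, 6.36 and 6.40 in S21D, a difference of -1.17 ± 0.21 (adjusted p = 0.276). PLBD1, a lysosomal phospholipase B-like protein, read 6.62, 6.20, 6.82 and 6.14 in S28D and 6.98, 7.13, 8.52 and 8.83 in S21D, a difference of -1.42 ± 0.51. A brighter probe set of PLBD1 did not differ, at 10.80 to 11.15 in S28D and 10.83 to 11.22 in S21D, so that the gene's direction depends on the probe set. Of 22 measured markers of macrophages and other myeloid cells, 1 was higher (FCGR3A, 0.63) at an unadjusted p under 0.05 (4.55%, against 0.65% of named genes) and 0 were lower, with a median of 0.00.

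For DAB2, LGMN, NEU1, SMPDL3A and FOLR2 the step in group means between day 21 and day 28 was smaller than that between day 14 and day 21. For TCN2 the later step was no smaller, with 12.62 ± 0.35 in S14D, 11.52 ± 0.25 in S21D and 10.36 ± 0.57 in S28D. DAB2, on its brighter probe set, averaged 14.10 ± 0.32 in S14D (n = 3), 9.68 ± 1.30 in S21D and 7.45 ± 0.86 in S28D (n = 4 each). LGMN averaged 14.58 ± 0.40, 12.38 ± 0.30 and 11.29 ± 0.48 at the 3 ages in the same order, and NEU1 10.79 ± 0.68, 6.99 ± 0.49 and 5.83 ± 0.37. SMPDL3A averaged 14.31 ± 1.03 in S14D, 11.20 ± 0.25 in S21D and 10.06 ± 0.55 in S28D, and FOLR2 10.00 ± 0.46, 6.20 ± 0.34 and 5.03 ± 0.24. The arrays labelled S35D were not lower again, with LGMN at 13.05 ± 0.05, TCN2 at 12.12 ± 0.08 and DAB2 at 8.59 ± 0.57 (n = 3). The S21D arrays are common to both steps, which were not tested against each other.

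**Figure D3:**
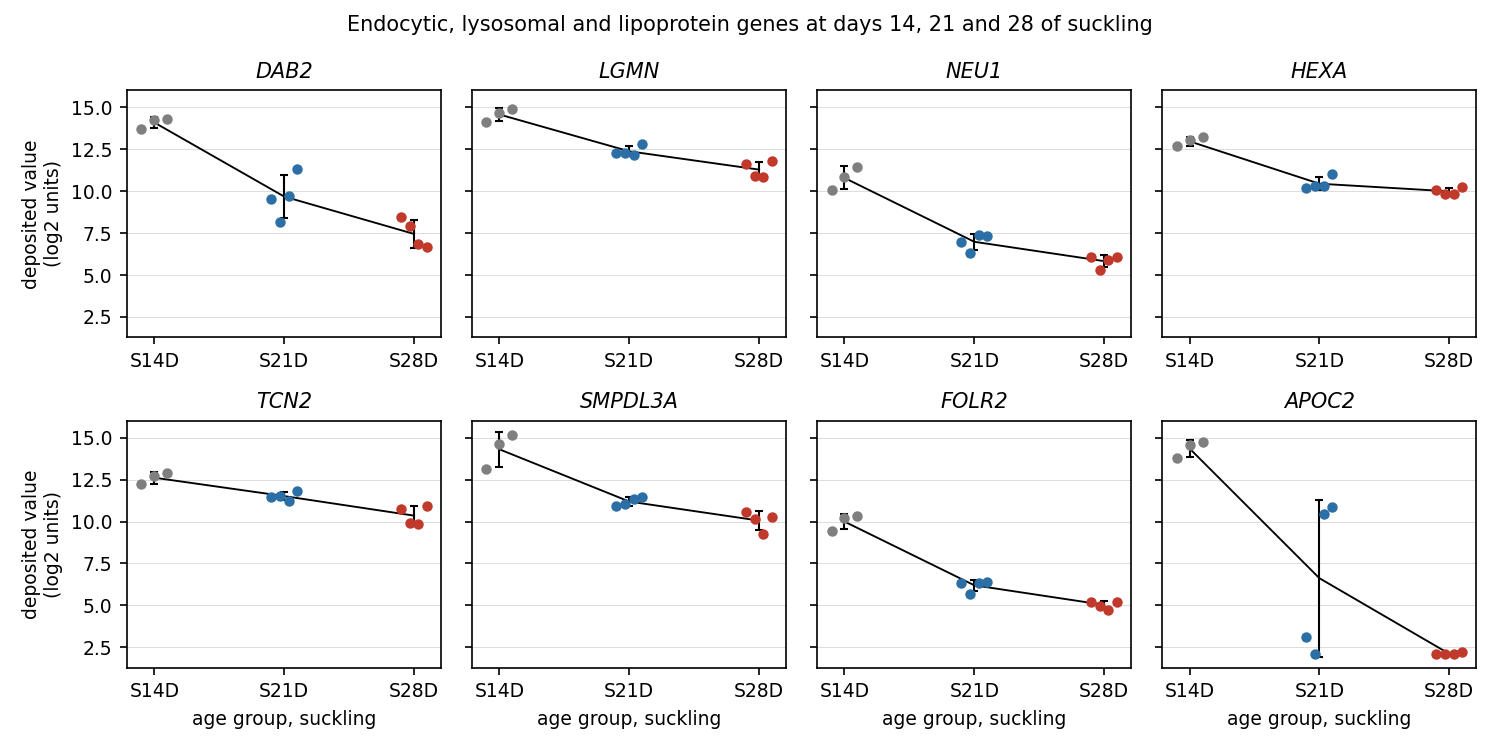
Deposited log2 values (vertical axes) of 8 endocytic, lysosomal, vitamin-handling and lipoprotein genes in S14D, S21D and S28D arrays (horizontal axes, in order of age), with mean and SD joined by a line. Each mean is lower at the later age, and APOC2 splits the S21D arrays into a pair near the floor and a pair above 10.

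Fat absorption genes varied widely between single animals. Of 21 measured members, 0 were higher and 1 lower at an unadjusted p under 0.05 (4.76%, against 0.99% of named genes). The median was -0.22, between -0.45 without S21D replicate 3 and -0.07 without S21D replicate 2, and 0.00 with S28D replicates 1 and 3 left out. APOC2, the cofactor of lipoprotein lipase, was at or near the floor in S28D (2.08, 2.09, 2.09 and 2.20), and read 3.09, 2.08, 10.46 and 10.85 in S21D. S21D replicates 3 and 4 thus had a high value while S21D replicates 1 and 2 did not. The S14D arrays, from other piglets, averaged 14.36 ± 0.52. CBR1 and UPK3A were likewise higher in S21D replicates 3 and 4 than in S21D replicates 1 and 2. UPK3A, a urothelial membrane protein, read 4.22, 4.10, 2.57 and 3.94 in S28D and 5.84, 4.40, 8.62 and 7.68 in S21D. APOC3, a regulator of triglyceride-rich lipoproteins, read 7.69, 7.83, 8.55 and 14.04 in S28D and 9.32, 9.03, 10.52 and 12.15 in S21D. APOA4 followed it, with 9.26 in S28D replicate 4 and 5.20 to 5.51 in the other S28D arrays, as did FABP1, the liver-type fatty acid-binding protein, with 15.15 in S28D replicate 4 and 10.66 to 12.84 in the others. S28D replicate 4 was also the highest S28D array for GSTA1. The mean level of the 17 brighter members of the list was 9.91, 9.88, 9.84 and 11.21 in S28D and 10.43, 10.50, 10.71 and 11.50 in S21D.

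Absorptive surface genes did not pass the adjusted test. All 8 brighter brush border genes had negative differences, with a median over the 10 measured of -0.17 (between -0.33 without S21D replicate 3 and -0.06 without S28D replicate 3), and 1 was lower at an unadjusted p under 0.05 (10%, against 0.99% of named genes). The difference furthest from 0 was that of GGT1, gamma-glutamyltransferase, at -1.24 ± 1.44, with overlapping groups. The gene past the unadjusted p was XPNPEP2, a membrane aminopeptidase that splits bonds next to proline, with 9.67, 9.03, 8.97 and 9.54 in S28D, against 10.29, 10.27, 9.37 and 10.60 in S21D (difference -0.83 ± 0.35). MEP1B, the beta subunit of meprin, read 13.64, 13.56, 12.61 and 13.41 in S28D and 13.75, 14.11, 13.70 and 14.19 in S21D. Its groups did not overlap on this probe set, with a difference of -0.64 ± 0.35, and did on its 2 others. Nutrient and ion transporters had a median of -0.27 over 27 measured genes, with 20 negative and 4 positive differences and 0 past an unadjusted p under 0.05. Leaving out single arrays took that median between -0.42 without S28D replicate 4 and -0.08 without S21D replicate 2. With S28D replicates 1 and 3 left out, the medians were -0.08 for the transporters and -0.09 for the brush border genes. SLC5A1, the sodium-glucose cotransporter, read 14.23, 13.95, 13.26 and 13.84 in S28D and 14.26, 14.54, 13.77 and 14.44 in S21D. Tight and adherens junction genes had a median of -0.16 over 11 measured (between -0.32 without S28D replicate 1 and -0.12 without S21D replicate 2), with 0 past an unadjusted p under 0.05. CLDN4 was at -0.74 ± 0.35, and CLDN10, another claudin, read 4.86, 3.34, 4.92 and 5.04 in S28D and 5.49, 6.18, 5.05 and 5.54 in S21D, without overlap and with a difference of -1.03 ± 0.63. The general epithelial markers had a median of -0.16 over 10 measured, with 9 negative differences, and their part in the values of these lists was not tested. Sterol synthesis genes had a median of 0.26 over 15 measured, with 10 positive and 3 negative differences, 0 past an unadjusted p under 0.05 and MSMO1, a sterol C4 methyl oxidase, at 0.74 ± 0.41. The mean level of the 12 brighter members was 9.72, 9.86, 9.70 and 10.51 in S28D and 9.51, 9.86, 9.98 and 9.46 in S21D. S28D replicate 4 alone was above every S21D array, and without it the list's median was 0.01.

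Interferon-induced genes were higher in some S28D animals and not in others. Of 26 measured, 5 were higher and 0 lower at an unadjusted p under 0.05 (19.2%, against 0.65% of named genes higher by the same rule), 0 passed the adjusted test, and the groups overlapped for every member on its brightest probe set. The median was 0.68, with 24 positive and 2 negative differences. CXCL9, a T cell chemokine induced by interferon, read 12.49, 8.27, 13.70 and 11.36 in S28D and 9.11, 8.52, 9.18 and 9.70 in S21D. S28D replicate 2 was below every S21D array and S28D replicate 3 was 4.00 above the highest, and the difference of 2.33 had an SE of 0.87. RSAD2, the antiviral enzyme viperin, read 12.29, 10.997, 13.55 and 10.93 in S28D and 10.16, 10.61, 10.91 and 10.99 in S21D, a difference of 1.28 ± 0.47. MX2, a dynamin-like antiviral GTPase, read 8.43, 6.89, 9.70 and 7.20 in S28D and 6.21, 5.98, 7.17 and 6.91 in S21D, a difference of 1.49 ± 0.61. STAT2, a subunit of the factor that carries type I interferon signals to the nucleus, differed by 0.46 ± 0.18.

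ISG15, a ubiquitin-like modifier, was at 12.09, 10.82, 13.53 and 11.95 in S28D and at 10.24, 10.97, 11.57 and 11.01 in S21D, a difference of 1.15 ± 0.53. IFIT2, which binds foreign RNA, was at 11.44, 9.34, 12.24 and 10.08 in S28D and at 9.55, 9.71, 9.79 and 9.70 in S21D, a difference of 1.09 ± 0.54. USP18, which removes ISG15 from proteins, differed by 0.68 ± 0.34. In each of these S28D replicate 3 was the highest array and S28D replicate 2 lay within or below the range of S21D. The mean level of the 25 brighter members showed the same order, with 10.64, 9.35, 11.33 and 10.14 in S28D and 9.38, 9.68, 9.86 and 9.71 in S21D. DDX58, the RNA sensor RIG-I, did not overlap on 1 probe set, with 5.29, 4.76, 7.25 and 5.10 in S28D and 3.22, 4.71, 4.29 and 4.26 in S21D (difference 1.48 ± 0.66), but did on a brighter one (0.80 ± 0.52). CCL8, a monocyte chemokine, read 8.76, 7.67, 10.52 and 7.67 in S28D and 7.30 to 7.59 in S21D, a difference of 1.23 ± 0.55, and SOCS1, the feedback inhibitor of cytokine signalling, read 5.66, 4.84, 7.93 and 5.24 in S28D and 4.40 to 4.97 in S21D. IFNG, interferon gamma itself, was at 5.15 in S28D replicate 3 and at most 2.56 in the other 7 arrays.

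The 2 highest arrays, S28D replicates 1 and 3, were also the 2 arrays in which EIF1AY was above the floor. In S28D replicates 2 and 4 the mean level of the interferon list was 9.35 and 10.14, against 9.38 to 9.86 in S21D. Leaving out single arrays moved the list's median between 0.34 and 0.94. With S28D replicates 1 and 3 left out it was 0.10. No S21D array was above the floor for EIF1AY, so these S28D arrays have no S21D counterpart, and the part of this marker in the interferon values was not tested.

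**Figure D4:**
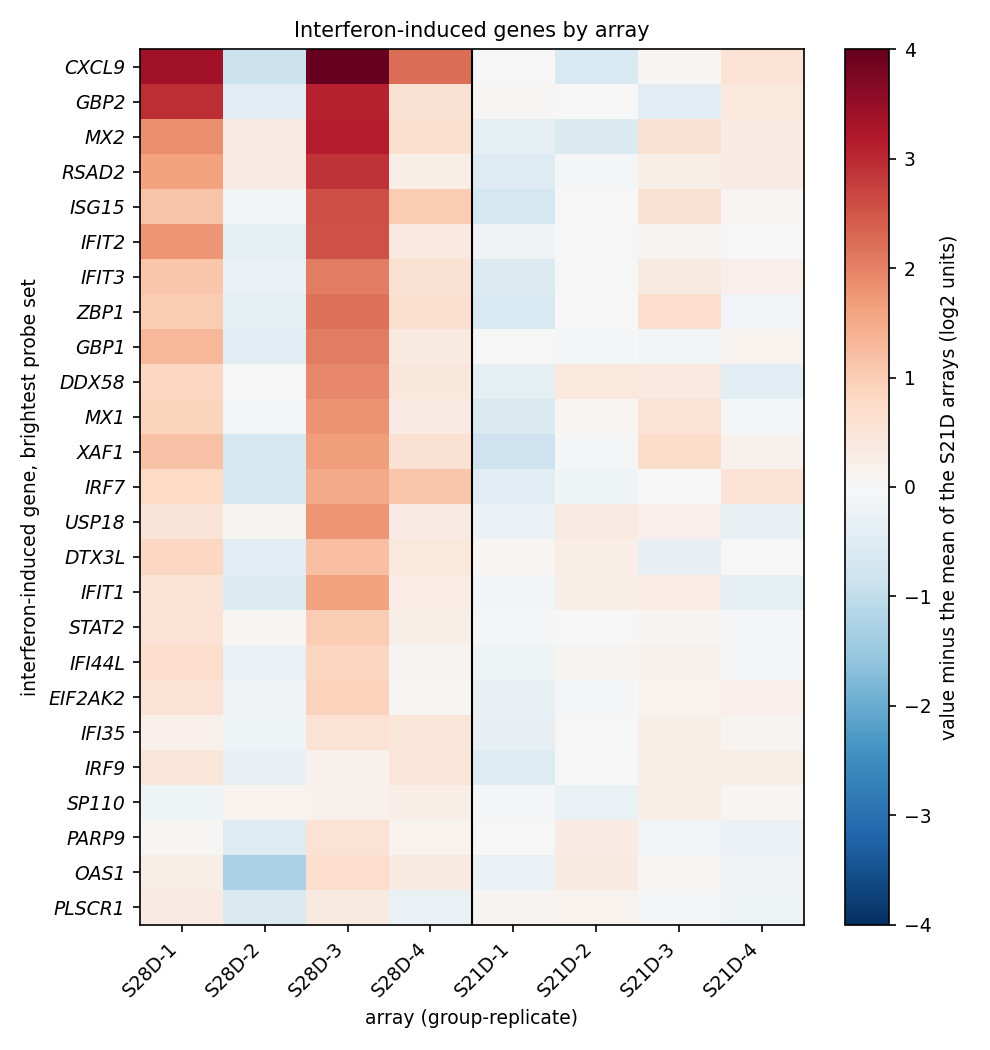
Deposited log2 value minus the mean of the 4 S21D arrays (colour) for 25 interferon-induced genes (rows, ordered by the difference between groups) in the 4 S28D arrays (left of the line) and the 4 S21D arrays (right of it). S28D replicates 3 and 1 are red over most rows, S28D replicate 2 is not, and the S21D columns stay pale.

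Antigen presentation genes differed by less. Of 15 measured genes of MHC class I and peptide loading, 1 was higher at an unadjusted p under 0.05 (6.67%, against 0.65% of named genes), with a median of 0.19, or 0.09 without S28D replicate 3. That was TAP1, the peptide transporter, with 12.48, 11.15, 12.72 and 11.84 in S28D and 11.04, 11.45, 11.37 and 11.37 in S21D, a difference of 0.74 ± 0.27. The mean level of the list was 11.78, 11.20, 11.77 and 11.63 in S28D and 11.38 to 11.43 in S21D, and its median was -0.04 with S28D replicates 1 and 3 left out. MHC class II had a median of 0.02 over 9 measured genes, with SLA-DOA, which restrains peptide loading, at -1.01 ± 0.70. SLA-DOA read 2.81, 4.93, 3.10 and 4.77 in S28D and 4.12, 4.19, 6.26 and 5.08 in S21D. S28D replicate 1 lay within 1 unit of the floor and S28D replicate 3 close to that limit, so the size of its difference is uncertain.

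No member of the B cell, T and NK cell or chemotaxis lists passed even an unadjusted p under 0.05 in either direction in limma. That fit takes its spread from all 20 arrays, and lymphoid levels varied widely outside the interval. The mean level of the B cell list was 6.06 in 21W35D replicate 2, against 10.30 to 11.16 in S28D and 10.66 to 11.20 in S21D. These counts and SEs therefore do not show how the lists fare on the spread of the 8 arrays alone. T and NK cell genes had a median of 0.30 over 20 measured, with 14 positive and 3 negative differences, and leaving out single arrays took the median between 0.09 without S28D replicate 4 and 0.50 without S28D replicate 1. B cell and follicle genes had a median of 0.05 over 14, with 7 positive and 6 negative differences, and leukocyte chemotaxis and adhesion genes 0.01 over 35, with 18 positive and 13 negative. CD2, a T cell adhesion receptor, read 6.66, 6.75, 7.72 and 7.73 in S28D and 6.01, 6.11, 7.36 and 5.62 in S21D, a difference of 0.94 ± 0.49. CXCL13, the chemokine that draws B cells into follicles, read 13.38, 14.35, 14.30 and 13.63 in S28D and 14.18, 13.97, 14.39 and 13.78 in S21D (difference -0.17 ± 1.72). Its SD was 0.49 in S28D and 0.26 in S21D, against 6.04 in 21W35D, which enters the same SE. Fitted to the 8 arrays alone, its unadjusted p was 0.558 in limma, against 0.924 in the main fit. VCAM1 and ICAM1, endothelial adhesion molecules, differed by -0.06 ± 0.52 and -0.07 ± 0.49, and VAV1, a signalling factor of lymphocytes, by 0.14 ± 0.62. The signs of VCAM1, CXCL13 and ICAM1 turned when single arrays were left out. The reference gene ACTB differed by -0.07 ± 0.11. MADCAM1, the vascular address for gut-homing lymphocytes, read 7.24, 7.93, 8.15 and 8.12 in S28D and 8.25, 8.24, 8.71 and 8.27 in S21D, without overlap but with a difference of only -0.51 ± 0.41.

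**Figure D5:**
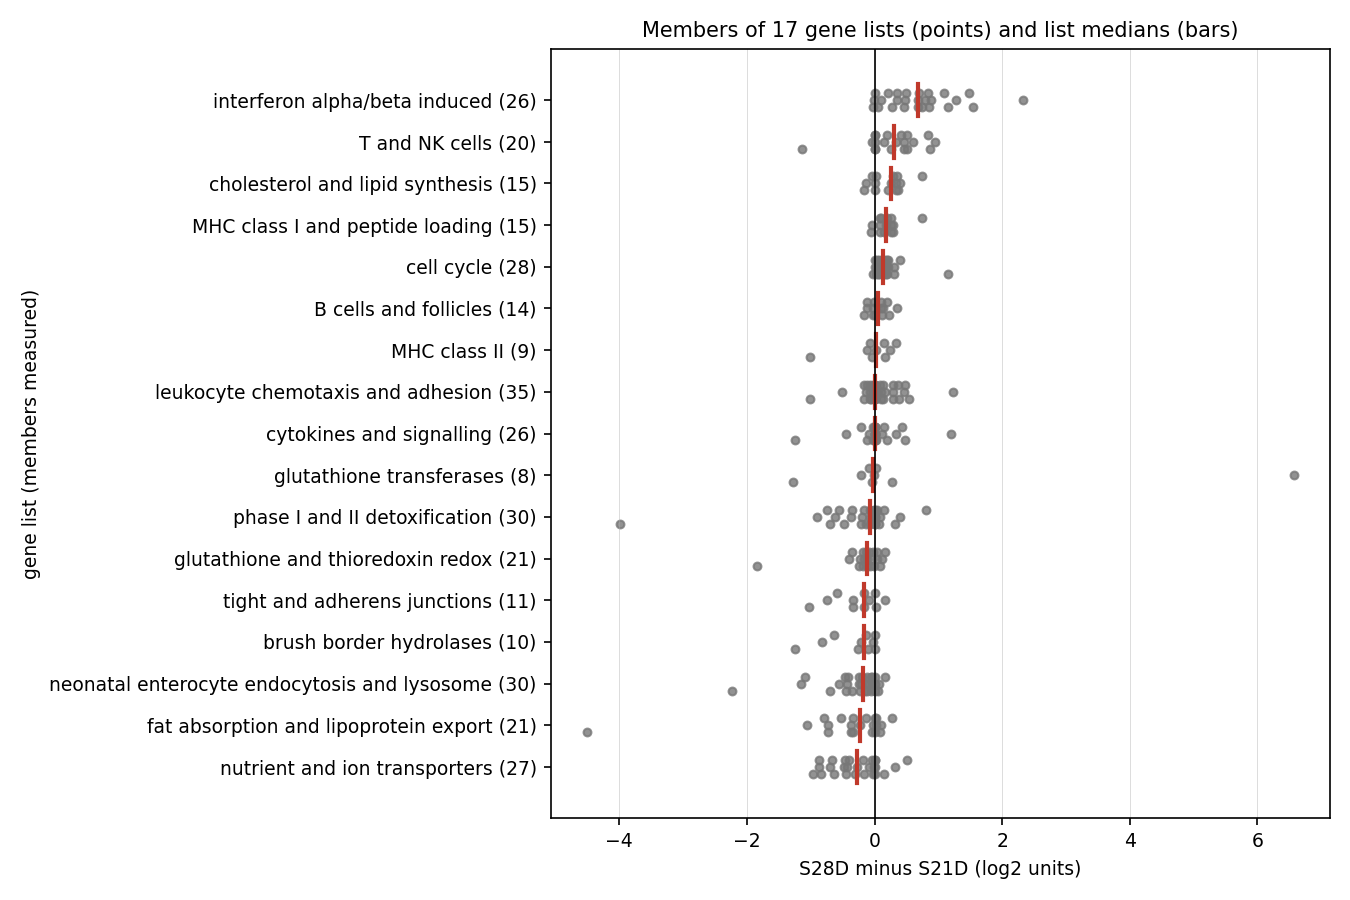
Difference S28D minus S21D (horizontal axis, log2 units) of each measured member (points) of 17 gene lists, with the median of each list (red bars), ordered by median. The medians run from -0.27 for nutrient and ion transporters to 0.68 for interferon-induced genes, and GSTA1 is the point at 6.58.

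The remaining separated genes belonged to no common group. PTGES, the prostaglandin E synthase, read 7.55, 8.43, 7.57 and 8.16 in S28D and 9.41, 9.34, 8.97 and 8.98 in S21D, a difference of -1.25 ± 0.36. BMP7, a growth factor of the TGF-beta family, read 3.29, 4.55, 4.55 and 4.79 in S28D and 5.25, 5.03, 5.87 and 5.65 in S21D, a difference of -1.15 ± 0.43. RACK1, a ribosomal scaffold protein, was separated on 1 probe set, with 2.40, 7.37, 2.45 and 8.20 in S28D and 10.41, 8.87, 9.46 and 11.03 in S21D. A second RACK1 probe set was bright and did not differ, at 14.42 ± 0.03 in both groups, so that the gene as a whole has no direction here. The S28D arrays near the floor on the first RACK1 probe set were replicates 1 and 3, and no fold is given for it.

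On the higher side, RAB8A, a GTPase of apical membrane traffic, read 4.93, 5.20, 5.13 and 6.45 in S28D and 3.17, 3.60, 3.38 and 4.61 in S21D, a difference of 1.74 ± 0.53, while a brighter probe set read 7.92 ± 0.19 in S28D and 7.73 ± 0.35 in S21D. ZCWPW1, a histone methylation reader, read 6.93, 5.99, 7.53 and 6.20 in S28D and 5.21, 5.50, 5.41 and 5.74 in S21D, a difference of 1.198 ± 0.40. CDC25C, the phosphatase that starts mitosis, read 4.87, 5.71, 5.11 and 5.02 in S28D and 4.43, 3.49, 4.12 and 4.05 in S21D, a difference of 1.16 ± 0.30. It was the 1 of 28 measured cell cycle genes past an unadjusted p under 0.05 (3.57%, against 0.65% of named genes). Of the list, 27 differences were positive and 1 negative, with a median of 0.13. That median was 0.27 without S28D replicate 1, 0.04 without S21D replicate 2 and 0.30 with S28D replicates 1 and 3 left out, and the mean level of its 26 brighter members overlapped, at 9.50 to 10.13 in S28D and 9.45 to 10.07 in S21D.

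The probe sets nearest to the call included a pair with no gene symbol. One read 4.28, 3.87, 5.47 and 4.06 in S28D and 8.58, 8.57, 8.43 and 8.32 in S21D, a difference of -4.06 ± 0.72 (adjusted p = 0.276), and it passed the adjusted test when the arrays labelled S35D and 21W28D were left out of the fit. Like FABP7 it was low at day 14, at 2.59 ± 0.17. Unlike FABP7 it was high in the weaned groups, with 8.71 ± 0.28 in the arrays labelled 21W28D and 8.64 ± 0.20 in 21W35D. FABP7 averaged 3.37 and 2.98 in these groups. Day 21 thus did not stand apart for this probe set over the whole series. The other read 6.66, 6.34, 6.26 and 6.78 in S28D and 5.35, 5.45, 5.68 and 5.84 in S21D, a difference of 0.93 ± 0.16 (adjusted p = 0.276). This one was also among the 5 of 11310 probe sets with a group mean of at least 6 that followed GSTA1 most closely over the 8 arrays (Pearson r = 0.94, n = 8). The second GSTA1 probe set was another (r = 0.94), and the other 3, with r of 0.90 to 0.95, had no symbol and differed by 0.14 to 0.43. These correlations contain the difference between the groups that GSTA1 was named for, and are a description only.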

How the data were processed

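The deposited values were taken as log2 expression values (the base is not stated), which the authors made with gcRMA, which corrects background using the GC content of the probes, equalizes the distributions of the arrays and gives 1 value per probe set. GCOS 1.2 and GCRMA are the tools in the submitters' notes. The array was described by 24123 probe sets, of which 124 Affymetrix controls were left out. The number of arrays limits the precision, since array values carry no read depth. Gene symbols came from the platform annotation, with 10069 probe sets having 1 symbol, 198 several and 13732 none, and probe sets with several symbols were not named.

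The test was limma 3.58.1 in R 4.3.3 (lmFit and eBayes) over all 20 arrays with 1 mean per group, contrast S28D minus S21D, with Benjamini-Hochberg adjustment. The code was checked on simulated data. Whether the samples within a group came from separate litters is not stated, and the p-values treat each array as an independent animal. They rest on a spread within groups that was estimated over all 20 arrays. Members, lists and rules were chosen with earlier results of these data known. Lists were described by counts and medians over the brightest probe set of each gene. Named were called probe sets, the 15 largest separated differences in each direction, genes the study followed by PCR, up to 4 list members with the smallest p and list-defining members, all glutathione transferases and the 5 probe sets nearest the call; APOC3, APOA4, FABP1, GGT1 and FCGR3A were added after their values had been seen. Alternatives changed the arrays fitted, filters, variance model, scaling, test, probe sets per gene and replicate block. Pairs with the same replicate number had deviations correlated at -0.19 to 0.11 and were not treated as pairs.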

Additional observations from a re-analysis of the deposited data

Results flagged for a closer look

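Values of single arrays that stood apart from the other 3 of their group were looked for in 228 groups of 4 values, by the gap to the nearest array over the group's range (against Dixon's critical value). This found 29 groups. The critical value is passed by about 1 in 20 groups of independent, normally distributed values. The groups here share the same arrays, and many genes were picked by separation or a small p, so the 29 cannot be judged against that rate. In S28D the array that stood apart was low for UPK3A (2.57), BMP7 (3.29), GSTM3 (3.34) and CLDN10, a claudin (3.34), and high for FABP7 (4.74), APOA1 (15.43), SREBF2, the sterol regulator (9.78), and CD3E, a T cell receptor subunit (7.65). In S21D it was low for FOLR2 (5.69), ICAM1 (9.45), AQP3, a water and glycerol channel (9.49), and a GSTZ1 probe set (4.88), and high for GSTA4 (7.38), HEXA (11.01), APOA1 (15.63), SLC46A1, the folate transporter (5.98), CD40 (10.76) and MADCAM1 (8.71).

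In a further 7 the other 3 arrays lay within 1 unit of the floor, so that the gap was measured against values with no order. These were in S28D APOC2 (2.20), a second GSTZ1 probe set (2.14), IL1A (2.095), IFNG (5.15) and a probe set of MCM4, a replication helicase subunit (3.79), and in S21D IL1A (2.59) and the third GSTA1 probe set (3.16). For mean levels of lists, S28D stood apart by a high array for fat absorption (11.21) and by a low one for the cell cycle (9.50) and for B cells and follicles (10.30), and S21D by a high array for MHC class II (10.63). S28D replicate 1 was the low array for both the cell cycle and the B cell lists, and S28D replicate 4 the high one for APOA1, SREBF2, CD3E and the fat absorption list.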

How the results depend on the processing

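The count of probe sets called lower was 1 in place of 0 under 5 alternatives. With the arrays labelled S35D and 21W28D left out, it was the unnamed probe set at -4.06. It was FABP7 with dim probe sets left out (13718 tested) and with only levels of at least 5 in the interval (12366 tested). It was also FABP7 with median centring of the arrays and with 1 probe set per named gene (6765 tested). The centring moved the median difference over all probe sets by 0.04. FABP7 passed the filters on level through S21D, the group where it was higher, so these calls are no added support. The call of GSTA1 was lost when only the 8 arrays were fitted (6.58, adjusted p = 0.767, 0 called higher) and under the methods' t-test with Benjamini-Hochberg adjustment (6.58, adjusted p = 0.914, 0 called higher). The methods' unadjusted t-test named 14 higher and 52 lower. With the replicate number as a block 1 was higher and 0 lower, and GSTA1 had an adjusted p of 0.0228; the block changed no other call. Leaving out each array in turn gave 1 to 1 called higher and 0 to 2 lower, the 2 without S28D replicate 2 (FABP7 and an unnamed probe set), and GSTA1 at 5.94 to 7.20 with an adjusted p of 2.97e-04 to 0.0230. The sign turned for VCAM1 (-0.16 to 0.11), CXCL13 (-0.31 to 0.0140), ICAM1 (-0.22 to 0.15) and ACTB (-0.17 to 0.00963). With S28D replicates 1 and 3 both left out, chosen after seeing the data, the counts were 1 and 0, VCAM1 was at 0.11 and ICAM1 at 0.0262. Causes of these changes were not tested, except that fewer probe sets were adjusted over under the filters. Signal near the floor limits what low genes can show.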
